A study of Mus musculus with 2 samples.

Results

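The genes described here encode enzymes that remove superoxide and peroxides, with the glutathione and thioredoxin proteins that serve them. They were taken by name from a list of 10: Gstp1, Prdx1, Prdx5, Prdx6, Gpx1, Gpx4, Txn1, Sod1, Sod2 and Cat. Of these, 8 had a feature (a transcript cluster of the array) that names them in the platform annotation used here, among 22181 genes in all. Prdx5 and Prdx6 had none and were not analysed here. Each gene was represented by its feature with the highest mean signal. For Prdx1 every feature named further genes as well, and it is marked as such below.

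Alveolar macrophages, the resident phagocytes of the lung air spaces, were sorted by flow cytometry from mice aged 8 to 10 weeks and lysed at once in Trizol. The control array carried RNA from Lysm-Cre mice, and the other array RNA from mice labelled Lysm-Cre Ssu72fl/fl, so both genotypes shared the Cre allele. Lysm-Cre drives Cre from the lysozyme 2 locus in myeloid cells at large, not in alveolar macrophages alone, and fl/fl marks both copies of a gene flanked by recombination sites. The targeted gene, Ssu72, encodes a phosphatase of the RNA polymerase II C-terminal domain. How many mice were pooled for an array is not given. Each genotype had 1 array, so nothing could be tested or checked in a replicate, and every difference below compares these 2 arrays, not the genotypes.

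Macrophages make superoxide with an NADPH oxidase and as a by-product of respiration. Superoxide dismutases turn it into hydrogen peroxide, which catalase, peroxiredoxins and glutathione peroxidases then reduce or split. Thioredoxin and glutathione supply the electrons, are themselves recycled with NADPH, and glutathione S-transferases use glutathione to conjugate reactive compounds. Many of these genes are targets of the transcription factor Nrf2 (encoded by Nfe2l2), which binds antioxidant response elements that resemble the AP-1 site.

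The 250 bases before the RefSeq start (GRCm38.p6) are printed for Gstp1, Prdx1 and Sod1, the 3 genes with a match to either motif searched. As deposited, Gstp1 had the highest difference of the measured genes and Prdx1, on its brightest feature, the lowest. The motifs were TGACNNNGC, the core of the antioxidant response element, and the AP-1 site TGAGTCA, on both strands. Matches are in capitals. The Gstp1 window is chr19:4037913-4038162 (minus strand), that of Prdx1 chr4:116685349-116685598 (plus strand) and that of Sod1 chr16:90220512-90220761 (plus strand), each read 5′ to 3′ towards the gene.
Gstp1: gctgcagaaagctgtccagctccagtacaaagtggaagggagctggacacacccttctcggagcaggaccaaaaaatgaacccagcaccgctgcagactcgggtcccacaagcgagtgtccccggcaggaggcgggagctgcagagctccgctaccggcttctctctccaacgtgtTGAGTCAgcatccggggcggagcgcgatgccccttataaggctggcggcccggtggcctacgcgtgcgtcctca
Prdx1: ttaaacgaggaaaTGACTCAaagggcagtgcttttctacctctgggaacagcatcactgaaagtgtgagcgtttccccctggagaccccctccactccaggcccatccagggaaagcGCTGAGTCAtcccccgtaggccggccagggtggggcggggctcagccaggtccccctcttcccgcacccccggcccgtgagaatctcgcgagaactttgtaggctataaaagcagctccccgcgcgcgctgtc
Sod1: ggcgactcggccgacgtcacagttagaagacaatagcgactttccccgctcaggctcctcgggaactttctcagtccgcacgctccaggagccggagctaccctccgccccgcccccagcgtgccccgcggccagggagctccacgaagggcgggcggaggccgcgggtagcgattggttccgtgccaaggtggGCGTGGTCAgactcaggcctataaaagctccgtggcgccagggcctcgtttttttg
In Gstp1 the AP-1 site lay 74 to 68 bases before the start. With the bases that follow it reads TGAGTCAgc, which departs from TGACNNNGC only by a G in place of the C. Variants of that motif were not searched. In Prdx1 an AP-1 site 131 to 125 bases before the start lay inside a TGACNNNGC match on the other strand (133 to 125), and a second AP-1 site on that strand lay 237 to 231 bases before it. In Sod1 a TGACNNNGC match on the opposite strand lay 56 to 48 bases before the start. The table held 12 windows for 9 of the 10 genes. TGACNNNGC occurred in 10.2% of all 32851 windows of this length, and TGAGTCA in 4.46%. The AP-1 site was present in the gene with the highest difference and, as deposited, in that with the lowest. With the trend of difference on level removed (described below), Cat was lowest (-0.22, against -0.20 for Prdx1). The Cat window held no match to either motif.

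On the array labelled Ssu72fl/fl, 6 of the 8 measured genes were lower than on the control array and 2 were higher. The median difference was -0.16 on the log2 scale. Among all 13016 compared genes, 51.9% were lower, with a median of -0.0068. A gene was compared if its signal lay above a floor of 4.65, the 50th percentile of all values, on at least 1 array. All 8 genes were above it on both. Between mean levels of 5.05 and 6.86, the span of the 8 genes, the share of lower genes was 59.1% of 4442 and that of higher genes 40.9%, and the median was -0.047. The excess of lower values followed a trend across the arrays: the median difference was -0.031 in 4463 genes of mean level 5 to 6 and -0.19 in 591 genes of level 6 to 7. For this reason a level-adjusted difference, with a smooth curve of difference on level removed, is given beside the deposited value. Level-adjusted, the 8 genes divided into 4 lower and 4 higher ones around a median of 0.019, where 53.5% of the genes of that span were higher. In place of a replicate error, each gene is set against the scatter of differences between genes of similar level (a robust SD, the scaled median absolute deviation): 0.19 at level 5 to 6 and 0.32 at level 6 to 7. It is called the spread here and describes scatter between genes, not between animals. In RNA pooled from sorted cells, fewer cells of a type and less RNA per cell cannot be told apart.

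**Figure D1:**
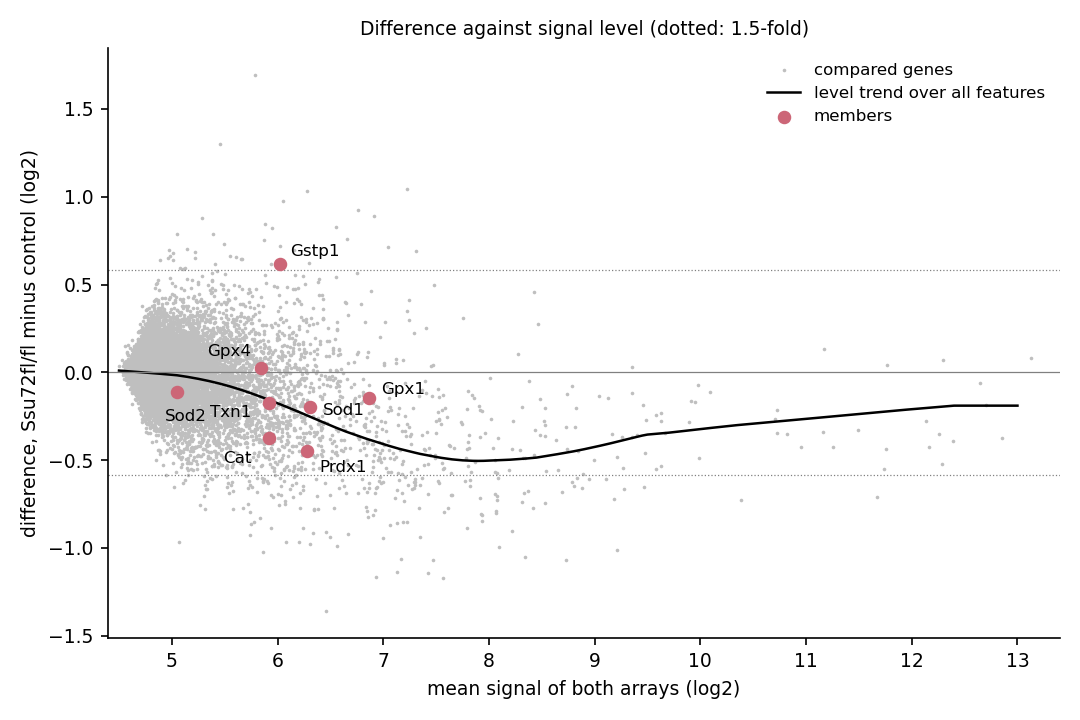
Difference between the arrays (log2, Ssu72fl/fl minus control) against the mean signal of both arrays (log2) for 13016 compared genes (grey), with the 8 redox genes named and the level trend over all features as a line. Gstp1 lies above the dotted 1.5-fold line, while Sod1 and Txn1 lie close to the trend.

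Gstp1, the pi-class glutathione S-transferase that conjugates glutathione to reactive compounds, stood highest. Its signal was 5.71 in the control and 6.33 in the Ssu72fl/fl sample, a difference of 0.62, or 1.53-fold. The level-adjusted difference was 0.80. It was the only gene of the 8 past 1.5-fold in either direction, a size that 0.315% of all compared genes reached on the higher side and 1.37% on the lower. In the level span of the 8 genes these shares were 0.675% and 2.12%. None of the 8 reached 2-fold, and neither did most other genes (0.0307% were 2-fold higher and 0.0845% 2-fold lower). In the order of differences Gstp1 was at position 36 of 13016 from the top, with 24 of 11706 protein-coding genes above it. Of the 591 genes of its level, 9 had a higher difference, and it lay 2.52 spreads above their median. Its mean level of 6.02 was just above the cut at 6, and the range below had a median of -0.031 and a smaller spread (0.19). The count of spreads would thus differ with another cut. By signal it moved from position 1429 on the control array to position 496 on the other. This shift in position is the same under any rescaling that keeps the order of values within an array.

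The array held further features of the pi class. A second feature, which names both Gstp1 and its near-identical neighbour Gstp2, read 4.82 and 4.74 (-0.077), close to the floor. The feature naming Gstp2 alone read 5.92 and 6.11, a difference of 0.19 (level-adjusted 0.37), where the median of its level was -0.19 and the spread 0.32. Gstp3 read 4.98 and 5.04 (0.062). Averaging both Gstp1 features gave 0.27. Because Gstp1 and Gstp2 transcripts are so alike, signal on these features cannot be assigned to either gene with certainty.

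Prdx1 and Cat, which both remove hydrogen peroxide, had the lowest differences. Prdx1 encodes an abundant cytosolic peroxiredoxin, and its brightest feature, shared with Gm21399, read 6.50 and 6.05, a difference of -0.45, or 1.36-fold lower. That put it 0.79 spreads below the median of its level, and the level-adjusted difference was -0.20. A second feature, naming Prdx1, Gm21399 and AV051173, went the other way, from 5.45 to 5.76 (0.30). The remaining feature, naming Prdx1 and Gm21399, was below the floor on both arrays (4.38 and 4.33). The 2 Prdx1 features above the floor therefore disagreed in direction, and their signal could come from any gene they name. With the mean of all 3 features, the difference was -0.067.

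Catalase, a haem enzyme of peroxisomes that splits hydrogen peroxide into water and oxygen, had a single feature naming no other gene. Cat read 6.10 in the control and 5.73 in the Ssu72fl/fl sample, a difference of -0.37, or 1.30-fold lower. It lay 1.76 spreads below the median of its level, where 274 of 4463 genes had a lower difference. Level-adjusted it was -0.22, slightly more than the spread of 0.19. Its position by signal went from 815 to 1206. Of the genes with a feature of their own, Cat was the lowest. Of the 8, Cat and Gstp1 lay more than 1 spread from the median of their level. The share of all compared genes that far out was not counted, so this does not set them apart. Cat's mean level of 5.92 was near the top of the range 5 to 6. The trend at level 5.9 (-0.15) was already below the median of that range (-0.031). Prdx1, in the range above, had a similar level-adjusted difference (-0.20) but lay 0.79 spreads from its median. The count of spreads thus depends on where the level ranges are cut.

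**Figure D2:**
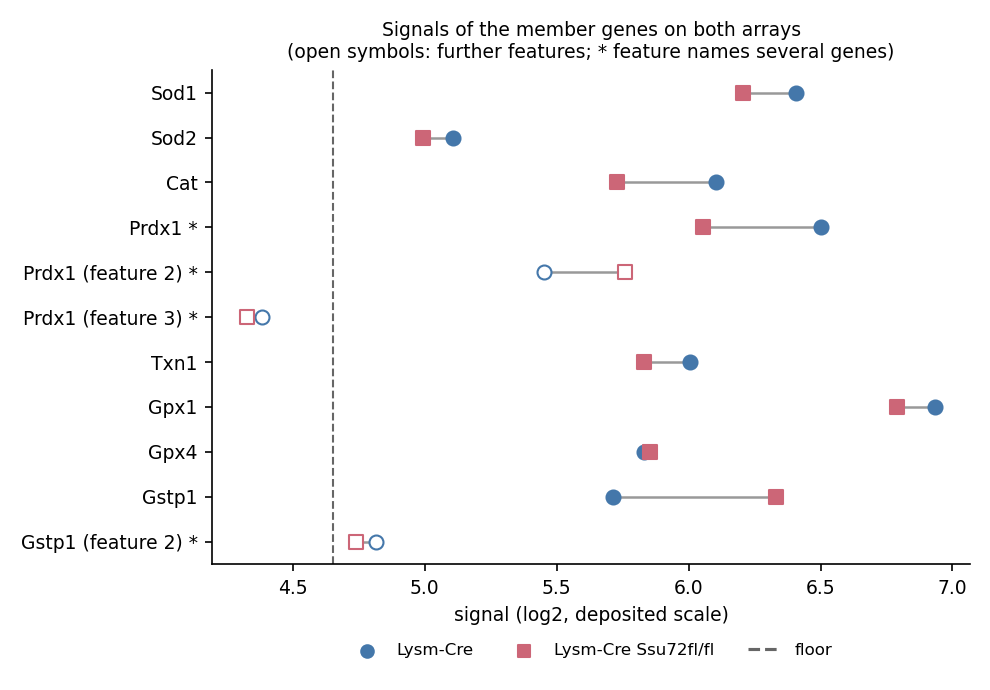
Signals (log2, deposited scale) of every feature that names 1 of the 8 genes, on the Lysm-Cre array (circles) and the Lysm-Cre Ssu72fl/fl array (squares), with a dashed line at the floor of 4.65. Gstp1 moves from 5.71 to 6.33, and the 2 brighter Prdx1 features move in opposite directions.

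The superoxide dismutases, which supply the hydrogen peroxide that the other enzymes consume, were both slightly lower and within the spread. Sod1, the copper and zinc enzyme of the cytosol, read 6.41 and 6.21, a difference of -0.20 that matched the median of its level (-0.19). Its direction depended on the scaling: the level-adjusted difference was 0.055, and after quantile normalization it was 0.037. Sod2, the manganese enzyme of mitochondria and a classical NF-kappaB target, was the dimmest of the 8 representative features, 0.45 above the floor on the control array. It read 5.11 and 4.99, a difference of -0.11 (level-adjusted -0.097) against a spread of 0.19.

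The glutathione peroxidases Gpx1 and Gpx4 carry selenocysteine at their active site. Gpx1, which reduces hydrogen peroxide in cytosol and mitochondria, read 6.93 and 6.79, a difference of -0.15. Its level-adjusted difference was 0.24, so its direction also turned with the scaling, and it moved up from position 337 to 281 by signal. Gpx4, which reduces lipid hydroperoxides in membranes and protects from ferroptosis, read 5.83 and 5.85, a difference of 0.024 (level-adjusted 0.16). Gpx1 lay 0.15 and Gpx4 0.28 spreads above the median of their level. Txn1, the cytosolic thioredoxin that returns peroxiredoxins to their reduced state, read 6.00 and 5.83 (-0.17, level-adjusted -0.017, spread 0.19). In all, 6 of the 8 genes lay within 1 spread of the median of their level, and 7 within 2 spreads. The share of all compared genes inside these limits was not counted, so these counts do not set the 8 genes apart from others.

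Ordered by difference, the genes ran Prdx1, Cat, Sod1, Txn1, Gpx1, Sod2, Gpx4 and Gstp1. Every gap between neighbours up to Gpx4 was at most 0.18 and smaller than the spread. The gap from Gpx4 to Gstp1 was 0.59, against a spread of 0.32. Because the spread is scatter between genes and each genotype had 1 array, neither comparison shows whether this order would recur. Without Gstp1, 6 of 7 genes were lower, with a median of -0.17 (level-adjusted -0.017, 4 of 7 lower). By mean signal the features stood at rank 749 (Gpx1), 1244 (Sod1), 1278 (Prdx1), 1735 (Gstp1), 1946 (Cat), 1947 (Txn1), 2125 (Gpx4) and 7125 (Sod2) of 33793. These ranks place each feature on the array and do not compare transcript numbers between genes, because features bind with different strength.

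**Figure D3:**
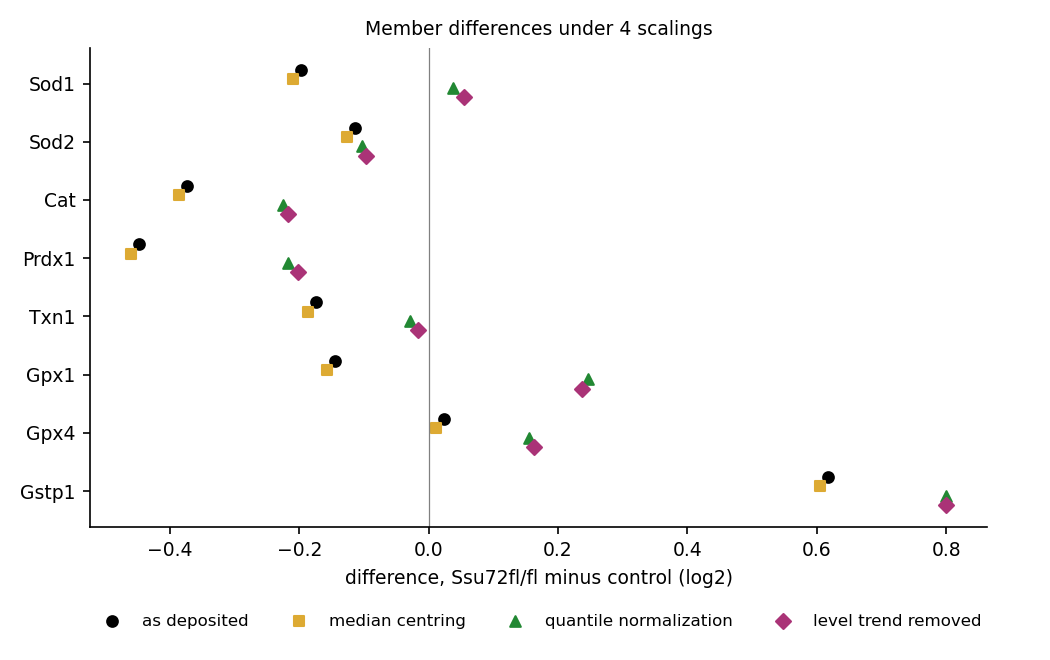
Difference of each of the 8 genes (log2, Ssu72fl/fl minus control) as deposited, after median centring, after quantile normalization and with the level trend removed. Gstp1 is highest in each (0.61 to 0.80), Cat, Prdx1, Sod2 and Txn1 are below 0 in each, and Sod1 and Gpx1 cross 0.

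Genes of the thioredoxin and glutaredoxin system, of which the reductases are only a part, did not move as a block. In the thioredoxin and glutaredoxin list, 8 of 13 compared genes were lower, with a median of -0.038 (level-adjusted 0.011, 7 of 13 higher). Txnip, the inhibitor of thioredoxin, read 8.03 and 7.54 (-0.49), but its level-adjusted difference was 0.012. Txnl1, a thioredoxin-like protein, read 5.05 and, just above the floor, 4.65 (-0.39, level-adjusted -0.39, spread 0.095). Mitochondrial thioredoxin, Txn2, was at the other end with 5.72 and 5.98 (0.27, level-adjusted 0.41, spread 0.19), followed by the stress-induced sestrin gene Sesn2 (0.18). Txnrd1, the reductase of Txn1, and Srxn1, which repairs overoxidised peroxiredoxins, were added for their role after the values were seen; they differed by -0.14 and 0.022.

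Glutathione synthesis, recycling and breakdown was divided, with 5 of 9 compared genes lower and a median of -0.0054. Gsr, the reductase that regenerates glutathione, was the exception in size: it read 6.13 and 5.64, a difference of -0.48 (level-adjusted -0.34) against a spread of 0.19. Next was the amino acid transporter chain Slc3a2 (-0.22, level-adjusted -0.0056), and at the other end were Cbs (0.17), which starts the conversion of homocysteine towards cysteine, and the oxoprolinase gene Oplah (0.040). The subunits of the rate-limiting synthesis enzyme, also named for their role after the values were seen, went opposite ways (Gclc -0.17 and Gclm 0.039).

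The remaining glutathione S-transferases were evenly split, 7 lower and 7 higher of 14 compared, with a median of 0.0020. Gstt1 read 4.68 and 5.03 (0.35, spread 0.095) and Gsta4, which detoxifies lipid aldehydes, 4.94 and 5.24 (0.30). The mu-class genes Gstm4 (-0.17) and Gstm6 (-0.11) were lowest. None of these 14 genes reached 1.5-fold, the size Gstp1 passed. Counted in spreads, however, Gstt1 lay further from the median of its level (0.0080) than Gstp1 did from its own (2.52 spreads). Gstt1 was close to the floor on the control array. The spread at its level was computed after values below the floor were raised to it. For level-adjusted values, which were not raised, it was 0.12. Gstp1, at a mean level of 6.02, lay just above the cut at 6. This order in spreads therefore depends on the floor and on where the level ranges are cut. Of the other peroxiredoxins, glutathione peroxidases and the extracellular dismutase, 3 of 6 compared were lower, with a median of -0.0053. Sod3 was lowest (5.72 and 5.46, -0.26), with Gpx8 next (-0.052), and Prdx2 (0.12) and Gpx3 (0.082) were highest.

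**Figure D4:**
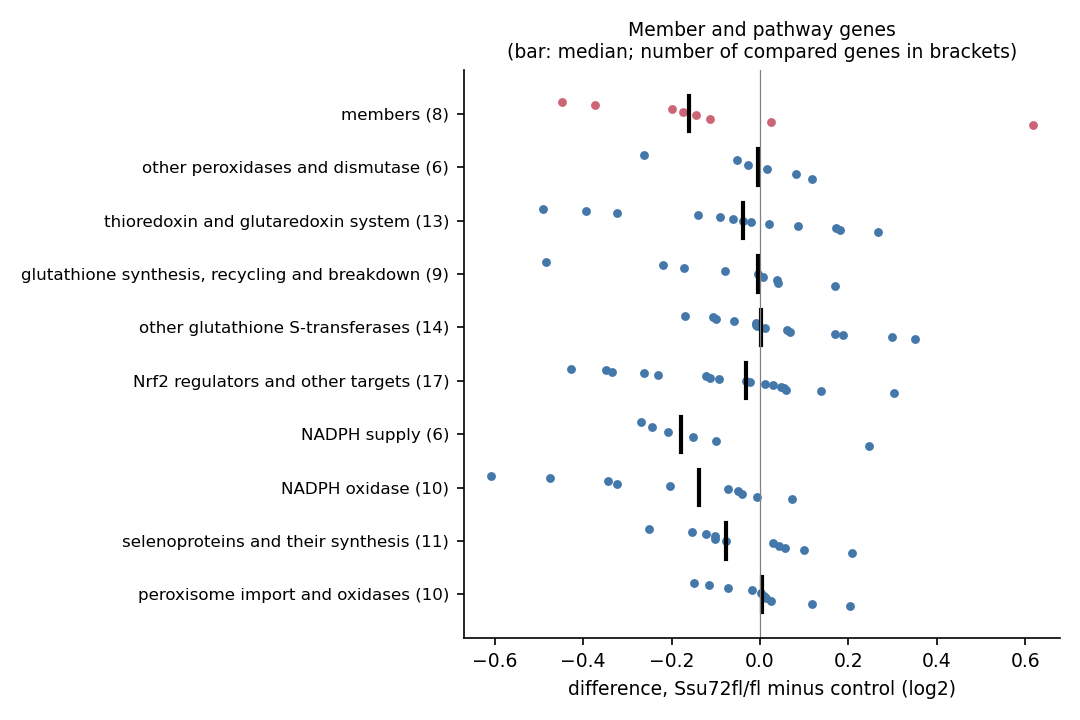
Differences (log2, Ssu72fl/fl minus control) of the 8 redox genes and of 9 lists of related genes, 1 point per compared gene and a bar at each median. Most points lie between -0.4 and 0.4, and Gstp1 is the highest point of all lists.

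The Nrf2 list, which holds regulators of this response and targets outside the enzymes above, had 10 of 17 compared genes lower and a median of -0.032 (level-adjusted 0.013, 10 of 17 higher). Nfe2l2 itself read 6.04 and 5.69 (-0.35, level-adjusted -0.20, spread 0.19). The ferritin heavy chain gene Fth1 read 11.47 and 11.04 (-0.43, level-adjusted -0.18, spread 0.16). Osgin1 read 5.38 and 5.68 (0.30, level-adjusted 0.38), and the haem oxygenase gene Hmox1 was close to level (5.56 and 5.62, 0.058).

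The lists of NADPH oxidase and NADPH supply had more lower genes. Of 10 compared NADPH oxidase genes 9 were lower, with a median of -0.14, which was -0.022 when level-adjusted, with 6 of 10 lower. Cybb, the catalytic gp91phox subunit, read 7.60 and 6.99 (-0.61, level-adjusted -0.15), and the GTPase gene Rac1 6.80 and 6.32 (-0.47, level-adjusted -0.16). These level-adjusted values were inside the spreads of 0.30 and 0.32. Rac2 (-0.0064, level-adjusted 0.33) and Duox1 (0.073) were at the upper end. Of 6 compared NADPH supply genes 5 were lower, with a median of -0.18 (level-adjusted -0.12, again 5 of 6). Of all compared genes, 51.9% were lower as deposited and 45.9% when level-adjusted. G6pdx and Tkt of this list had no feature naming them alone, and Me1 was below the floor on both arrays. The pentose phosphate genes Taldo1 (6.04 and 5.77, -0.27) and Pgd (5.87 and 5.62, -0.24) were lowest, while Pgls of the same pathway was higher (5.65 and 5.89, 0.25).

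A list of other selenoproteins and of the factors that make selenoproteins had 6 of 11 compared genes lower and a median of -0.078 (level-adjusted 0.031), from Selenof (-0.25, level-adjusted 0.031) and Selenoh (-0.15) to Selenos (0.21) and Eefsec (0.057). Of these 4, Eefsec, the elongation factor for selenocysteine, belongs to the synthesis machinery and the others are selenoproteins. Peroxisome genes, whose import machinery brings in catalase, had 4 of 10 lower and a median of 0.0055, from Pex6 (-0.15) and Pex26 (-0.12) to Pex10 (0.20) and Pex16 (0.12). Cat was lower than each of these 10 peroxisome genes, also when level-adjusted (-0.22, against -0.14 for Pex6). The spread at the level of Pex6 was smaller, however (0.095, against 0.19 for Cat).

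The label could not be checked through the targeted gene. Ssu72 read 4.86 in the control and 4.998 in the Ssu72fl/fl sample (0.14), and the sources do not say whether its probes lie in the deleted part. Lyz2, whose locus carries Cre, read 10.23 and 9.74 (-0.49, level-adjusted -0.16). Of 10 measured alveolar macrophage markers all 10 were above the floor on both arrays, with summed log2 levels of 68.9 and 66.4, from Marco (-0.51, level-adjusted -0.32) and Itgax (-0.49, level-adjusted -0.066) to Siglecf (-0.088) and Fabp4 (0.19). As deposited 9 of them were lower, and level-adjusted 5 were lower and 5 higher (median 0.065). Markers of other cells were also present. Of 11 markers of alveolar type 2 and club cells, which are rich in antioxidant enzymes, 10 were above the floor on both arrays (sums 64.2 and 63.0), and Sftpc read 8.71 and 8.35 (level-adjusted difference 0.12), Sftpb 6.25 and 5.93, Etv5 5.02 and 5.17 and Lamp3 4.70 and 4.76. Of the club cell markers, Scgb1a1 read 8.02 and 7.99 (level-adjusted difference 0.47) and Cyp2f2 4.95 and 4.79 (level-adjusted -0.16). Scgb3a2 was below the floor on both arrays. Of the 10 compared markers of alveolar type 2 and club cells, 8 were lower as deposited and 6 when level-adjusted (median -0.035). Of 11 monocyte and interstitial macrophage markers, 11 were above it on the control array and 10 on the other (sums 65.8 and 61.4; 10 of 11 lower), from H2-Ab1 (-1.07) and Cx3cr1 (-0.63) to C1qc (-0.15) and Folr2 (0.12). Level-adjusted, 10 of these 11 were still lower, with a median of -0.28. The part of these cells in the values of the redox genes was not tested. Neutrophil markers lay near the floor (5 and 6 of 10 above it, sums 46.9 and 46.8), with S100a8 at 4.76 and 4.66, Ngp at 5.09 and 5.001, S100a9 at 4.98 and 4.95 and Ltf at 4.93 and 4.95. Of 10 erythroid markers 3 had a feature naming them alone, with Slc4a1 at 4.74 and 4.76 and Klf1 at 5.09 and 5.11. Dendritic cell markers were above the floor for 5 of 7 genes (sums 39.2 and 38.2). They ran from Ccl22 (-0.51, level-adjusted -0.45) and Cd209a (-0.31, level-adjusted 0.14) to Flt3 (-0.036) and Siglech (-0.011). T, B and NK cell markers were above it for 3 of 9 on each array (sums 42.2 and 42.9), with Pax5 at 0.058 and Cd79a at 0.17.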

How the data were processed

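Labelled cRNA from 6 ug of total RNA was hybridised to 1 Affymetrix gene-level array per genotype, per the labels' protocols. The authors deposited 1 log2 value per feature, with column medians of 4.65 (control) and 4.66 (Ssu72fl/fl). That the scale is log2 was read from the values, which run from 4.23 to 13.5. MAS5 is named in the submitters' processing notes without its role; how background, normalization and centring were handled is not given in the sources. The direction follows the genotype labels.

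The platform annotation gave 1 gene symbol for 23521 of 33793 features, several for 1814 and none for 8458; 23328 took their current symbol from RefSeq (GRCm38.p6) through the Entrez identifier. Only features naming 1 gene stood for genes, except that the 10 listed genes could also use a feature naming several. Values below the floor (50th percentile of all values) were set to it, which left 13016 genes. The level trend was a lowess (fraction 0.3, statsmodels 0.14.6) through medians of level bins 0.1 wide with at least 10 features. Differences, counts and medians were computed with pandas 2.3.3, and the code was tested on simulated data.

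The genes and lists were chosen with earlier results of these data known. Genes named were the listed ones, Ssu72, Lyz2 and up to 2 at each end of each list among those above the floor on both arrays. Txnrd1, Srxn1, Gclc, Gclm, Gstp2 and Gstp3 were added for their role or likeness to a listed gene after their values were seen. The club cell markers Scgb1a1, Cyp2f2 and Scgb3a2 were likewise added after their values were seen. Alternatives were other scalings, feature rules, floors of the 25th and 75th percentile and a 1.5-fold threshold; the second Prdx1 feature was added after the data were seen. The number of arrays limits the precision.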

Additional observations from a re-analysis of the deposited data

How the results depend on the processing

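With quantile normalization and with the level trend removed, 4 of the 8 genes were higher (2 as deposited), and the median became 0.0046 and 0.019. The number of genes 2-fold higher became 13 and 11 (4 as deposited) and 2-fold lower 1 in both (11 as deposited), so the split of calls also turned. At 1.5-fold, 41 genes were higher and 178 lower. Gstp1 stayed above 0 in the settings run (0.27 to 0.80) and Cat below 0 (-0.39 to -0.22). Gpx1 became 0.25 and 0.24, and Sod1 0.037 and 0.055, under quantile normalization and trend removal. Prdx1 became -0.067 with the mean of its features and 0.30 on its second feature; with that feature 5 of 8 genes were lower. Raising the floor to the 75th percentile made the glutathione synthesis median -0.22, over fewer genes. With features naming 1 gene only, Prdx1 was left out and 5 of 7 genes were lower (median -0.15). Leaving out an array was not possible. No paired analysis was possible because each genotype had 1 array. Signal over background limits Sod2 and the dim list genes most.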
